A study of Mus musculus with 16 samples.

Results

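The Dlk1-Dio3 region of mouse chromosome 12 carries one of the largest clusters of miRNAs in the genome. Here its miRNAs were followed in dendritic cells grown from bone marrow and exposed to quercetin, a plant flavonol, with or without lipopolysaccharide (LPS), the bacterial product that activates dendritic cells through TLR4. Members were chosen by name: every measured mature miRNA, of either arm, from a list of 48 hairpins of the region. Rows were found for 39 of those hairpins and gave 51 mature miRNAs of the 1372 names used. No row was found for miR-370, miR-380, miR-496a, miR-539, miR-544, miR-665, miR-666, miR-668 or miR-882. miR-369 stood outside the rule, and miR-654 was left out because its counts look exchanged with those of a neighbouring row.

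The libraries came from 4 wild-type C57BL/6 mice, each of which gave 1 library to each of 4 groups. Mice 1 to 3 were 8 weeks old and mouse 4 was 7 weeks old, and the labels describe males (1 label of mouse 2 gives no sex). The control group received no stimulation. The LPS group received LPS at 1 µg/mL for 6 h on day 8 of culture. The quercetin group received 25 µM quercetin, as the aglycone, on days 5 and 7, and the fourth group received quercetin on those days followed by LPS on day 8. Red blood cells had been lysed in every culture before plating, and no vehicle for quercetin is named for the controls. The cells are mixed cultures, so for each level below fewer cells of a type and less RNA per cell cannot be told apart.

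The region is imprinted. The protein-coding genes Dlk1, Rtl1 and Dio3 are expressed from the chromosome inherited from the father. The noncoding RNAs Meg3, Rian and Mirg, and the miRNAs that lie among them, are expressed from the chromosome inherited from the mother. The miRNAs are thought to be cut from long maternal transcripts, and they are known for high levels in embryo, placenta and brain and for low levels in most adult blood cells. Several hairpins lie on the strand opposite to Rtl1, and their mature forms, miR-127-3p and miR-434-3p among them, match the Rtl1 transcript perfectly and can direct its cleavage.

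The mature sequences that the results turn on are shown first, from the RefSeq miRNA table on build GRCm38.p6, 5′ to 3′, with the seed (bases 2 to 8) in capitals. They are the 6 members that passed the test, miR-127-3p, which held the most counts, and miR-300-3p, which nearly equals miR-381-3p.
miR-410-3p: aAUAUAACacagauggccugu
miR-411-5p: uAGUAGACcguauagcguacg
miR-409-3p: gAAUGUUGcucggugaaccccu
miR-127-5p: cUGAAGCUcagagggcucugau
miR-127-3p: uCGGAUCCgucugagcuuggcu
miR-434-3p: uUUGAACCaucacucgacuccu
miR-381-3p: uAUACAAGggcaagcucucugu
miR-300-3p: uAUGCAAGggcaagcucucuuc

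No 2 of these 8 share a seed. Sequences were found for 48 of the 51 members, and among those 48 only 2 seeds occur in 2 members: AUGUAAC in miR-379-3p and miR-411-3p, and GGUAGAC in miR-379-5p and miR-1193-5p. miR-381-3p and miR-300-3p differ by 3 substitutions over 22 bases, A4G, G21U and U22C, with the base of miR-381-3p first and positions counted from the 5′ end. Only the first of these lies in the seed. Reads of this pair could have been split between them in counting, so their separate levels are uncertain.

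On GRCm38 all 51 members lie on the plus strand of chromosome 12 and their hairpins span 180 kb. Dlk1 (chr12:109452823-109463336) and Meg3 (chr12:109541001-109571726) come first. Rtl1 (chr12:109589193-109600330) follows on the minus strand, then Rian (chr12:109603940-109661716), Mirg (chr12:109729764-109749460) and Dio3 (chr12:110279068-110281097). By the GENCODE annotation 9 members lie on the strand opposite to exons of Rtl1. Of the rest, 9 lie in exons of Mirg, 3 in introns of Mirg, 2 in an intron of Rian and 1 in an exon of Meg3. The other 27 fall between these genes. Mature miR-127-5p (chr12:109592854-109592875), miR-127-3p (chr12:109592888-109592909) and miR-434-3p (chr12:109594565-109594586) belong to the hairpins antisense to Rtl1. miR-411-5p (chr12:109710190-109710210), miR-300-3p (chr12:109724363-109724384) and miR-381-3p (chr12:109726870-109726891) lie between Rian and Mirg. miR-409-3p (chr12:109743204-109743225) lies in an intron of Mirg and miR-410-3p (chr12:109743764-109743784) in an exon. The miR-409 and miR-410 hairpins, with miR-412 as the member hairpin between them, lie within 0.638 kb.

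The cluster was scarce in these cells. Library totals ran from 6454535 to 13943904 counts. Over all 16 libraries the 51 members summed to 5874 counts, of which 2080 were miR-127-3p and 1227 were miR-410-3p. The edgeR filter on low counts, with a floor of 1.13 CPM (the counts-per-million scale) in at least 4 libraries, kept 568 of the 1372 names and 11 members. The other 40 members did not pass, and 27 of them had at most 10 counts in all libraries together. Of the 11 that passed, 7 reached the floor in 4 libraries only when those given quercetin were counted. The exceptions were miR-127-3p, miR-409-3p, miR-410-3p and miR-411-5p, which reached it in at least 4 libraries without quercetin. A count of rises or a median over the 11 is therefore a description of members partly selected for being high with quercetin, and supports nothing by itself.

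As a sum, the marker miRNAs of the labelled cell type were abundant in every library, while the scarcest of them ran from 8.21 to 20.6 TMM-scaled CPM. The summed level of 7 dendritic and myeloid miRNAs was between 57323 and 95861 CPM of the library total, and was led by miR-155-5p and miR-142a-5p, miRNAs of activated and of all blood cells. None of the 7 was called as changed with quercetin in either comparison (edgeR), which does not show that they were unchanged.

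Quercetin alone was compared with control first, to ask which members differ before any LPS. In this comparison 4 of the 11 tested members rose and none fell. These were miR-127-5p, miR-409-3p, miR-410-3p and miR-411-5p. Of these, miR-127-5p passed the filter only when the libraries given quercetin were counted, so its rise was partly selected for. Among all 568 miRNAs tested 15.8% were called, and 6.87% were called higher (39 higher, 51 lower; edgeR's quasi-likelihood test, Benjamini-Hochberg adjusted p under 0.05). Upper quartile scaling turned that balance to 48 higher (8.45%) and 29 lower, while DESeq2 size factors called 42 higher (7.39%) and library size only 40 (7.04%). The number of members called was 4 under each of these. The median log2 fold change was 1.53 over these selected 11 and -0.05 over all miRNAs tested.

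miR-410-3p, the last hairpin of the cluster, was the most abundant member after miR-127-3p. In mice 1 to 4 its level, in TMM-scaled CPM, was 4.10, 1.75, 2.64 and 3.98 in control and 16.5, 3.98, 16.6 and 12.4 with quercetin. Mouse 2 stood low with quercetin, just below the highest control, so the groups overlapped, while all 4 mice were higher with quercetin than without. Group means were 3.12 ± 1.13 and 12.3 ± 5.92 CPM (SD, n = 4), and the test gave a log2 difference of 1.97 ± 0.46 (SE; edgeR adjusted p = 0.00847).

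miR-411-5p, near the start of the miR-379/miR-410 array, had closely grouped values. It stood at 1.70, 1.64, 1.76 and 1.73 CPM in control and at 4.92, 2.93, 4.31 and 4.32 CPM with quercetin. The groups did not overlap, and mouse 2 was again the lowest with quercetin. Means of 1.71 ± 0.05 and 4.12 ± 0.84 CPM (SD, n = 4) gave, on the log2 scale, a change of 1.26 ± 0.28 (SE; edgeR adjusted p = 0.00657).

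miR-409-3p, a neighbour of miR-410 in Mirg, had 0.928, 0.719, 1.88 and 1.47 CPM in control and 7.87, 2.51, 7.04 and 3.72 CPM with quercetin. The groups did not overlap, and mice 1 and 3 were the highest with quercetin. Its log2 fold change came to 2.08 ± 0.50 (SE; edgeR adjusted p = 0.0109).

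miR-127-5p, the 5′ arm of the miR-127 hairpin, rested on few counts, with 5, 1, 1 and 3 in the control libraries and 14, 2, 18 and 10 in those given quercetin. In CPM these were 0.387, 0.103, 0.126 and 0.260, against 1.72, 0.209, 2.04 and 1.20. Mouse 2 with quercetin lay inside the control range, so the groups overlapped. The log2 fold change was 2.41 ± 0.67 (SE; edgeR adjusted p = 0.0220). The call was lost without control 2 (adjusted p = 0.0656), control 3 (0.0525), quercetin 1 (0.0530) or quercetin 3 (0.0719), and with limma-voom (0.0714).

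The 7 members that did not pass this test had log2 fold changes from 0.80 for miR-541-5p to 2.43 ± 0.96 (SE) for miR-412-5p. Those of miR-300-3p (1.15), miR-434-3p (1.17), miR-381-3p (1.22) and miR-494-3p (1.53) lay between. Their edgeR adjusted p-values ran from 0.107 for miR-412-5p to 0.454 for miR-127-3p. Without control 3, miR-412-5p passed with 3.70 (adjusted p = 0.0391). All 4 quercetin libraries lay above all 4 controls for 3 of the 11 members, miR-409-3p, miR-411-5p and miR-541-5p, and for 10.4% of all miRNAs tested. For miR-541-5p the controls ran from 0.541 to 1.04 CPM and the quercetin libraries from 1.05 to 1.82, so its lowest quercetin value and highest control value nearly touched.

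**Figure D1:**
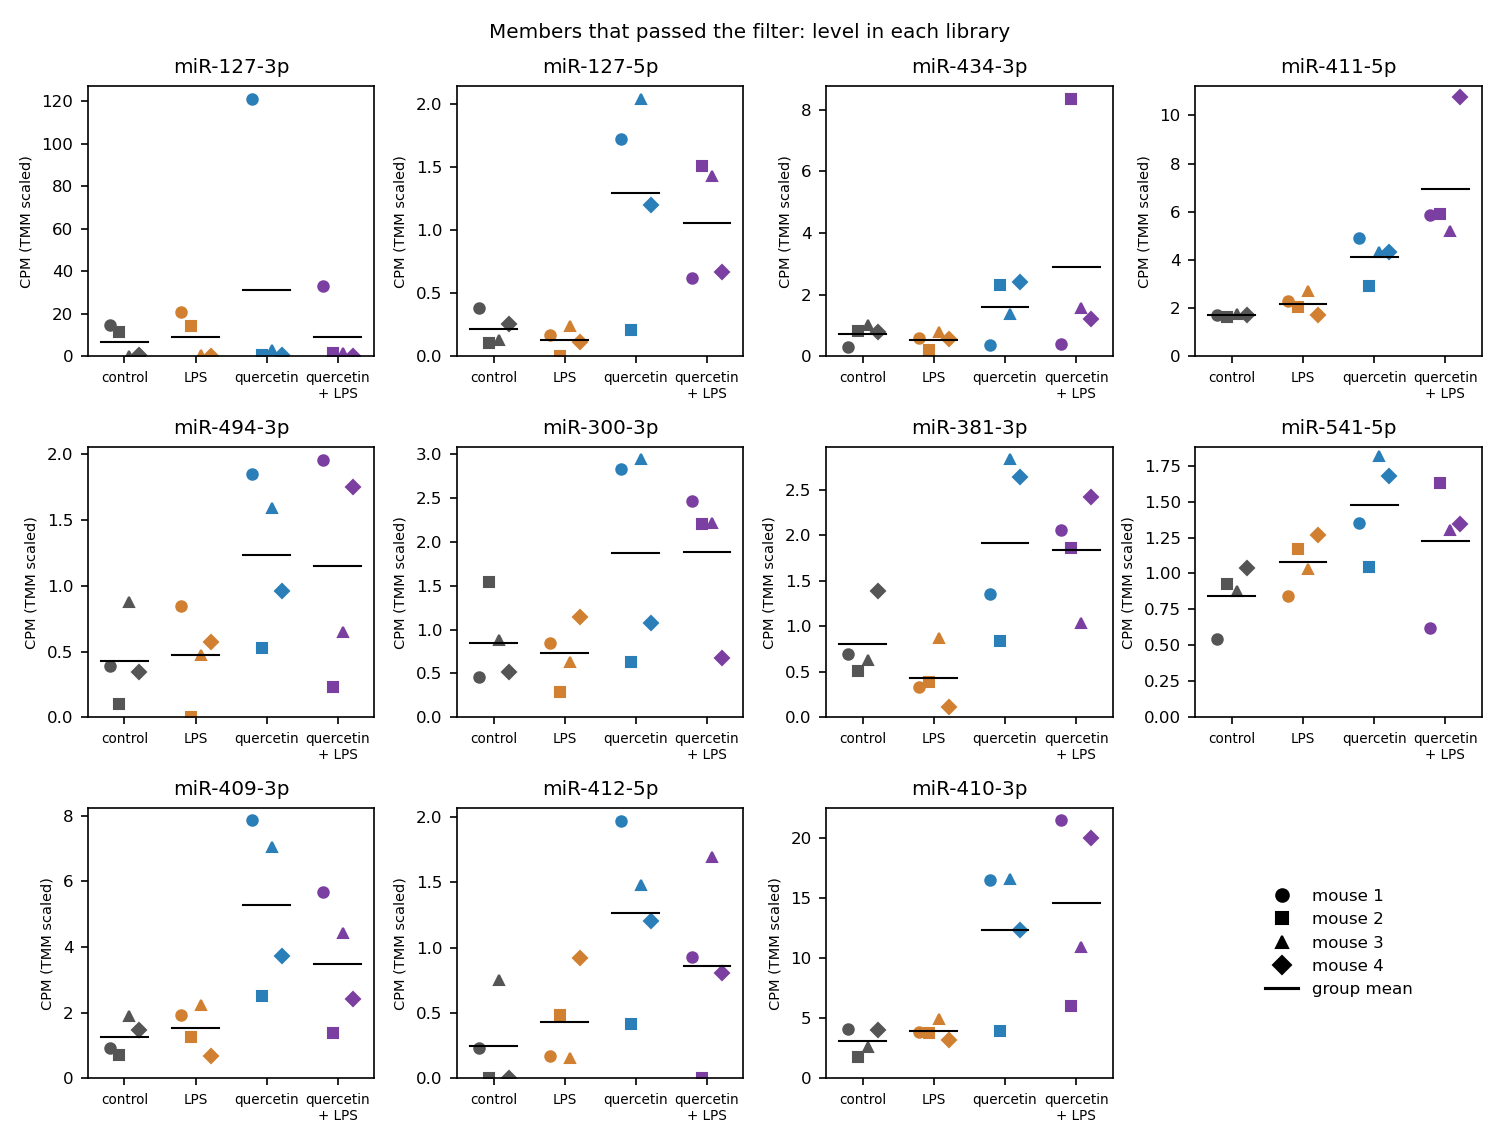
TMM-scaled CPM (linear axes from 0, a scale per panel) of the 11 members that passed the filter, by group. Each point is a library, its shape gives the mouse and the black line is the group mean. For miR-411-5p the controls lie between 1.64 and 1.76 and the quercetin libraries between 2.93 and 4.92, while for miR-127-3p mouse 1 alone reaches 121 with quercetin.

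Quercetin followed by LPS was compared with LPS alone, which asks the same in activated cells. These 8 libraries are not those of the first comparison, though they come from the same mice. Here 5 of the 11 tested members rose and none fell: miR-410-3p, miR-411-5p, miR-127-5p, miR-381-3p and miR-434-3p. Of these, miR-127-5p, miR-381-3p and miR-434-3p passed the filter only when the libraries given quercetin were counted. Their rises were partly selected for, so the count of members is a description. Among all 568 miRNAs 22.9% were called and 8.63% were called higher (49 higher, 81 lower, edgeR). The balance depended on the scaling: 67 higher (11.8%) and 66 lower with DESeq2 size factors, 71 (12.5%) and 54 with upper quartile, and 75 (13.2%) and 50 with library size only. The members called higher were then 5, 7 and 5. The median log2 fold change was 1.38 over these selected 11 and -0.13 over all miRNAs tested.

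miR-411-5p showed the smallest adjusted p of the members. In mice 1 to 4 it stood at 2.28, 2.05, 2.70 and 1.72 CPM with LPS and at 5.87, 5.92, 5.21 and 10.8 CPM with quercetin and LPS. The groups did not overlap, and mouse 4 stood apart above the other 3. The log2 fold change was 1.65 ± 0.28 (SE; edgeR adjusted p = 5.0e-04).

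miR-410-3p had 3.88, 3.80, 4.92 and 3.22 CPM with LPS and 21.5, 6.04, 10.9 and 20.05 CPM with quercetin and LPS. The groups did not overlap, and mouse 2 was the lowest of the quercetin and LPS libraries, as it was with quercetin alone. This gave a log2 fold change of 1.88 ± 0.45 (SE; edgeR adjusted p = 0.00816).

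miR-127-5p had 2, 0, 3 and 1 counts with LPS and 6, 13, 11 and 5 with quercetin and LPS. In CPM these were 0.169, 0, 0.238 and 0.115, against 0.618, 1.51, 1.43 and 0.673, with no overlap. On the log2 scale the change was 2.84 ± 0.73 (SE; edgeR adjusted p = 0.0124).

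miR-381-3p had 0.337, 0.390, 0.872 and 0.115 CPM with LPS and 2.06, 1.86, 1.04 and 2.42 CPM with quercetin and LPS. The groups did not overlap, and mouse 3 had both the highest LPS value and the lowest value with both agents. The log2 fold change was 2.02 ± 0.54 (SE; edgeR adjusted p = 0.0140). Its near copy miR-300-3p gave 1.38 ± 0.57 and did not pass (adjusted p = 0.0864). It passed without the library of mouse 4 given quercetin and LPS (adjusted p = 0.0285), where it stood at 0.673 CPM against at least 2.21 in the other 3, with upper quartile scaling (0.0497) and with DESeq2 (0.0409).

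miR-434-3p had 0.590, 0.195, 0.793 and 0.575 CPM with LPS and 0.412, 8.36, 1.56 and 1.21 CPM with quercetin and LPS. Mouse 1 was lower with both agents than with LPS alone, and mouse 2 stood far above the rest. The log2 fold change of 2.38 ± 0.78 (SE; edgeR adjusted p = 0.0362) fell to 1.09 without that library of mouse 2 (adjusted p = 0.255). The call was also lost when the mouse was fitted as a block (1.82, adjusted p = 0.0773), with limma-voom (0.191) and without LPS 1 (0.0679), LPS 2 (0.0809) or LPS 4 (0.0525).

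The other 6 members did not pass. miR-409-3p gave 1.16 ± 0.49 (SE; edgeR adjusted p = 0.0934), with levels of 1.94, 1.27, 2.22 and 0.690 CPM with LPS and 5.66, 1.39, 4.43 and 2.42 CPM with both agents. It was higher with quercetin in 4 of 4 mice, and it passed when the mouse was fitted as a block (1.10, adjusted p = 0.0397), without the library of mouse 2 given both agents (1.64, adjusted p = 0.0343), with upper quartile scaling (0.0431) and with DESeq2 (0.0447). miR-494-3p gave 1.25, miR-412-5p 1.02 and miR-541-5p 0.18. All 4 libraries with both agents lay above all 4 with LPS for 4 members, miR-127-5p, miR-381-3p, miR-410-3p and miR-411-5p. The same held for 6.87% of all miRNAs tested. With CPM by library size only, the same 4 members did not overlap, and neither did 68 of the 568 miRNAs.

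Of the 4 members called without LPS and the 5 called with LPS, 3 were the same: miR-127-5p, miR-410-3p and miR-411-5p. The share of all miRNAs called in both comparisons is not given here, so this count of 3 has no background. miR-409-3p passed in the first comparison, and miR-381-3p and miR-434-3p in the second. The interaction of quercetin and LPS, which tests whether the 2 responses differ, was called for no member and for 0.0% of all miRNAs (26 of 568 had an unadjusted p under 0.05, none of them a member, edgeR). Its estimates for those 3 members were -0.92 ± 0.70 for miR-409-3p, 0.81 ± 0.73 for miR-381-3p and 1.21 ± 1.10 for miR-434-3p (log2, SE). These errors leave room for a difference of the size of the responses themselves.

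**Figure D2:**
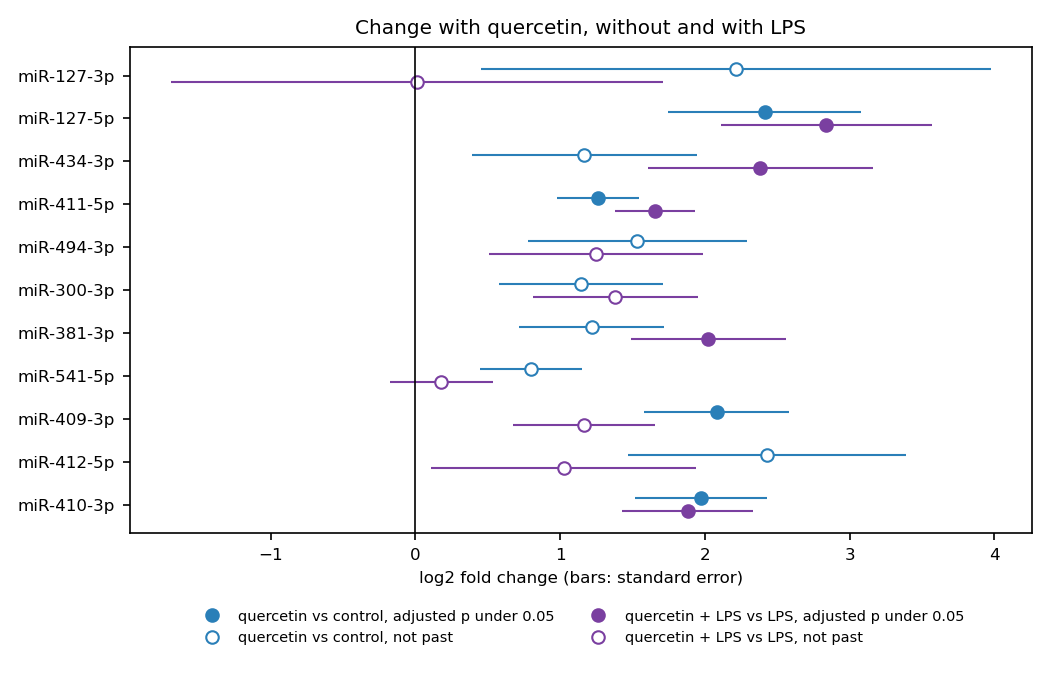
Log2 fold change with its standard error for the 11 members that passed the filter, in the order of their hairpins along chromosome 12. Filled points had an edgeR adjusted p under 0.05. The filled points run from 1.26 to 2.41 for quercetin against control and from 1.65 to 2.84 for quercetin and LPS against LPS, and the point of miR-127-3p lies at 0.01 in the second comparison.

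LPS by itself was not seen to move the cluster. Against control, 3 of 568 miRNAs were called (0.528%), none of them a member, and no member had an unadjusted p under 0.05 (edgeR). The members' log2 fold changes ran from -0.86 for miR-381-3p to 0.85 for miR-412-5p. With LPS added to quercetin 2 of 568 were called (0.352%), again no member. There miR-411-5p had the one unadjusted p under 0.05 among members, with 0.75 ± 0.27 (SE; edgeR adjusted p = 0.524). LPS against control shares its libraries with the comparisons above, so the values stand side by side and are no independent support.

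miR-127-3p held 35.4% of the cluster's counts, and its level differed widely between mice. In mice 1 to 4 its TMM-scaled CPM was 14.7, 11.5, 0 and 0.519 in control and 21.0, 14.1, 0.714 and 0.230 with LPS. With quercetin it was 121, 0.523, 3.06 and 0.6002, and with both agents 32.9, 1.39, 1.56 and 0.135. Mouse 1 was the highest in every group. Mouse 2 was high in the 2 groups without quercetin and low in the 2 groups with it. The 5′ arm of the same hairpin did not share this pattern, with at most 18 counts in any library and its highest counts in mice 1 and 3 with quercetin.

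For miR-127-3p the log2 fold changes were 2.22 ± 1.76 for quercetin against control and 0.01 ± 1.70 with LPS (SE; edgeR adjusted p = 0.454 and 0.996). Neither direction was stable. Without quercetin 1 the first became -2.25. The second became -2.95 without the mouse 1 library given both agents, -0.11 without LPS 3 or without LPS 4, -0.39 with limma-voom and -0.54 with the mouse as a block. No rise or fall of miR-127-3p is reported, and the cluster's sum is given below with and without it.

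The sum over all 51 members, in CPM of the library total without TMM scaling, was 27.1, 18.3, 11.8 and 14.7 in control and 179, 20.2, 55.1 and 39.8 with quercetin. It was 31.9, 18.2, 18.4 and 10.5 with LPS and 86.7, 42.9, 45.2 and 44.1 with both. Every mouse was higher with quercetin than without, but in control and quercetin the ranges overlapped. The log2 ratio of group means was 2.03, or 1.09 without quercetin 1, where miR-127-3p made up 71.5% of the cluster's counts. With LPS it was 1.47.

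Without miR-127-3p the sum over the other 50 members varied less between mice. It was 11.97, 7.99, 11.8 and 14.1 CPM in control and 12.8, 7.82, 17.6 and 10.3 with LPS. With quercetin it was 51.1, 19.6, 51.8 and 39.2, and with both agents 51.2, 41.3, 43.4 and 43.9. The 8 libraries with quercetin all lay above the 8 without, and mouse 2 with quercetin was the lowest of them. The group means were 11.5 ± 2.53 in control, 40.4 ± 15.04 with quercetin, 12.1 ± 4.18 with LPS and 45.0 ± 4.34 with both (SD, n = 4), ratios of 3.53 without LPS and 3.71 with it. LPS against control gave 1.06. This sum is a description, since the members and the omission of miR-127-3p were chosen with results known.

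**Figure D3:**
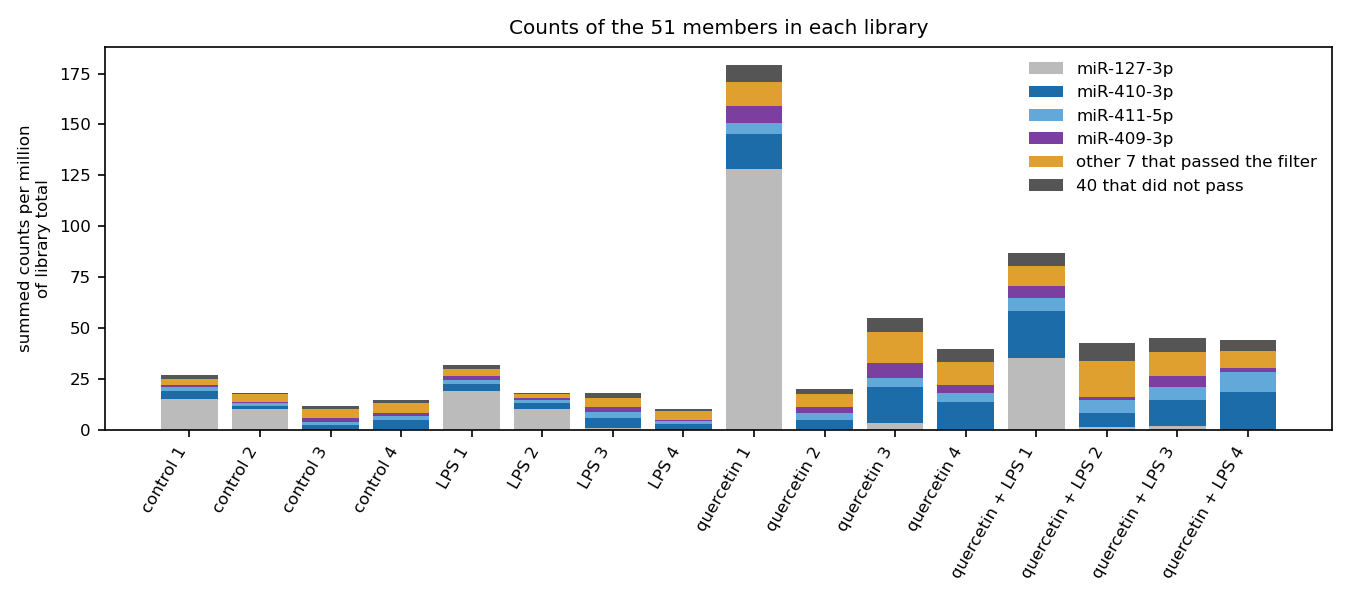
Level of the 51 members in CPM of the library total, stacked by member, for each of the 16 libraries (linear axis from 0; the number after a group is the mouse). The grey base is miR-127-3p, which reaches 128 in quercetin 1 and is below 4 in every library of mice 3 and 4. The part above the grey is at most 17.6 without quercetin and at least 19.6 with it.

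More members were seen at all with quercetin, although those libraries were mostly the smaller ones. Between 15 and 20 members had a count in the control libraries, 15 to 23 with LPS, 21 to 29 with quercetin and 22 to 28 with both. Library totals were 8660267 to 12529118 in control and 7694885 to 8563815 with quercetin, and 10096639 to 13943904 with LPS and 6454535 to 9035375 with both. Over all miRNAs the number detected was 923 to 997 in control and 896 to 967 with quercetin, and 916 to 990 with LPS and 823 to 927 with both. Mean CPM was higher with quercetin for 34 of the 51 members, lower for 6 and equal for 11, against 44.0% higher among all 1372 names. With LPS it was higher for 33 and lower for 13, against 38.0% higher among all names.

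By role and position, the miR-379/miR-410 array, which runs from between Rian and Mirg to the end of Mirg, held 3219 counts in 34 members, 84.8% of the counts other than miR-127-3p. Its summed level was 9.81 ± 2.48 CPM in control and 34.6 ± 13.7 with quercetin, and 10.8 ± 3.26 with LPS and 36.8 ± 9.79 with both (SD, n = 4; means compared without a test). The 3 hairpins miR-409, miR-412 and miR-410, neighbours among the members, alone made up 46.1%, and their ratios of means were 4.32 and 3.66.

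The hairpins antisense to Rtl1, without miR-127-3p, went from 1.41 ± 0.17 CPM in control to 5.04 ± 1.44 with quercetin, and from 1.04 ± 0.61 with LPS to 7.19 ± 6.31 with both. The last mean rests on mouse 2, at 16.4, while the other 3 mice stood between 3.09 and 6.04. The hairpins on the Meg3 side held 67 counts and the middle of the region 15, too few for a ratio that does not rest on single libraries. The 3′ arms carried 70.8% of the counts other than miR-127-3p, with ratios of 3.83 and 3.87, and the 5′ arms had ratios of 2.91 and 3.36.

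Over the 8 libraries with quercetin against the 8 without, the mean level was higher for 30 of the 39 hairpins and lower for 9. None of those 9 held more than 4 counts in all libraries. Some of the 30 were as scarce, such as miR-673 and miR-679 with 3 counts each. No share over all miRNAs stands beside this count of hairpins.

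**Figure D4:**
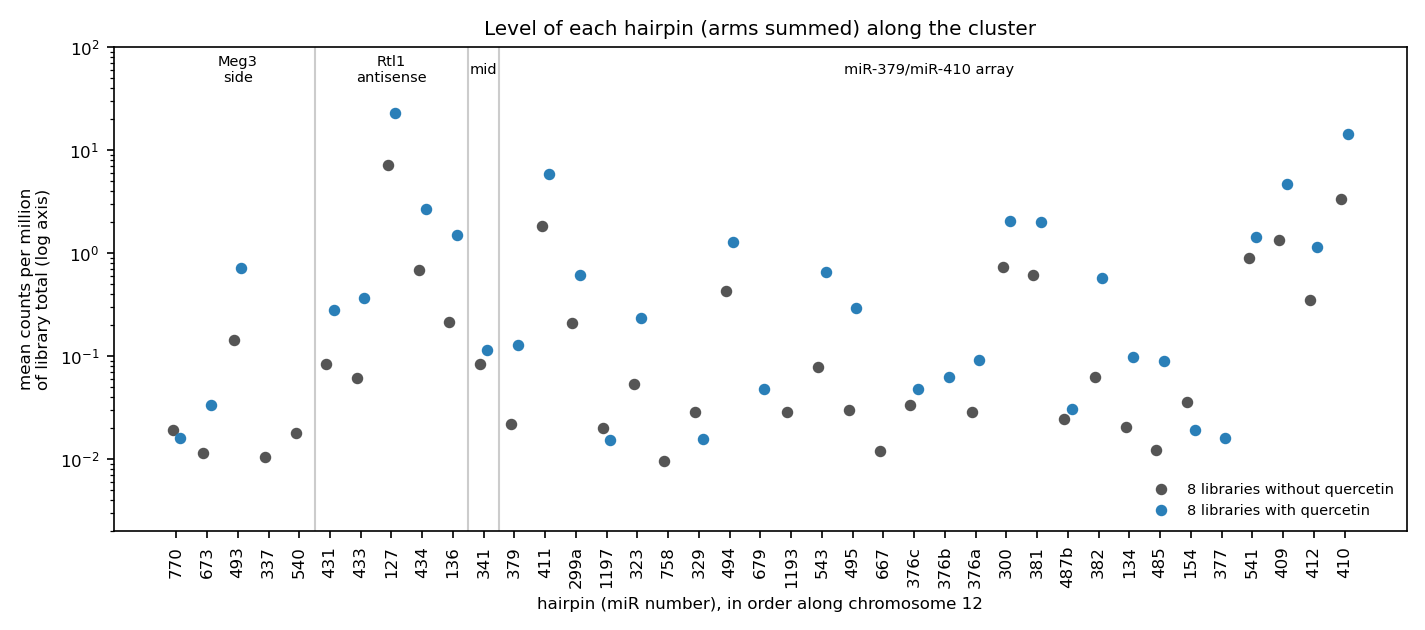
Mean level of each of the 39 hairpins (arms summed, CPM of the library total, log axis) in the 8 libraries without and the 8 with quercetin, in the order of the hairpins along chromosome 12; a mean of 0 has no point. miR-410 at the right end goes from 3.38 to 14.2 and miR-411 from 1.84 to 5.87.

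Of the 40 members under the filter, 6 had a single count. The 3 with the most counts were miR-136-3p (83), miR-299a-3p (59) and miR-493-5p (58). miR-136-3p, antisense to Rtl1, had 2, 0, 1 and 0 counts in control and 5, 3, 8 and 11 with quercetin. With LPS it had 4, 1, 3 and 2 counts, and with both agents 15, 18, 5 and 5. All libraries with quercetin were at or above the highest without it, apart from quercetin 2, in counts not corrected for depth. In an edgeR fit with no filter, where 2.33% and 3.57% of 1372 names were called higher without and with LPS, it was called in both comparisons, with log2 fold changes of 3.20 ± 0.81 (SE; adjusted p = 0.0160) and 2.52 ± 0.66 (SE; adjusted p = 0.0157).

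In the same fit miR-543-3p, with 0, 0, 0 and 1 counts in control and 6, 6, 5 and 8 with quercetin, was called without LPS (adjusted p = 0.00363) and not with it (1.71, adjusted p = 0.181). It was named because of this result. miR-299a-3p had the same count in every library as miR-299b-3p, whose 18 bases are the start of its own 22, so its reads cannot be assigned to one of them. Over all names with a count, filtered or not, 8 of the 51 members had all 4 quercetin libraries above all 4 without, beside 5.17% of the 1372 names, and with LPS 6 did, beside 3.21%. The 40 members together went from 1.29 ± 0.48 to 5.97 ± 2.46 CPM with quercetin and from 1.68 ± 0.82 to 6.80 ± 1.53 with LPS (SD, n = 4).

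Among the marker lists of other cell types, only the erythroid list had calls in both comparisons. An erythroid list of 6 miRNAs was led by miR-486b-5p and miR-486a-5p, which carry identical counts and were taken as 1 measurement. Summed over the 5 distinct measurements, its level was 366 to 799 CPM in control and 381.5 to 1038 with LPS. It was 2884 to 7024 with quercetin and 1163 to 3270 with both, and 4 of the 5 rose in each comparison (edgeR). The part of the erythroid miRNAs in the result was not tested.

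A list of 10 stromal, smooth muscle and fibroblast miRNAs, led by miR-143-3p and miR-199a-3p, held 9 distinct measurements, since miR-199b-3p carries the counts of miR-199a-3p. Its summed level in mice 1 to 4 was 25.6, 97.7, 418 and 166 CPM in control and 89.4, 641, 104 and 1294 with quercetin. With LPS it was 43.4, 32.4, 35.02 and 67.4, and with both agents 104.6, 4986, 281 and 465. The medians were higher with quercetin, 132 against 373 without LPS and 39.2 against 373 with it. None of the 6 distinct tested measurements was called without LPS, and 4 were called higher with LPS (edgeR). Without LPS miR-143-3p had a log2 fold change of 1.67 ± 1.16 (SE; edgeR adjusted p = 0.371), so a rise there was not excluded. The library of mouse 2 given both agents held the highest stromal sum, and it was also the one with miR-434-3p at 8.36 CPM. Without it 5 members were called against LPS, with miR-409-3p in place of miR-434-3p, beside 57 of all miRNAs called higher (9.71%) and 48 lower.

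Endothelial and lymphocyte miRNAs, 2 of each, had no call in either comparison. A list of 5 miRNAs foreign to bone marrow, led by miR-122-5p and miR-375-3p, summed to 5.51 to 16.4 CPM in control, 7.82 to 10.3 with LPS, 12.3 to 29.5 with quercetin and 14.2 to 29.4 with both. Of its 3 tested members none was called higher without LPS and 1 was called higher with it (edgeR). The part of these lists in the result was not tested.

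**Figure D5:**
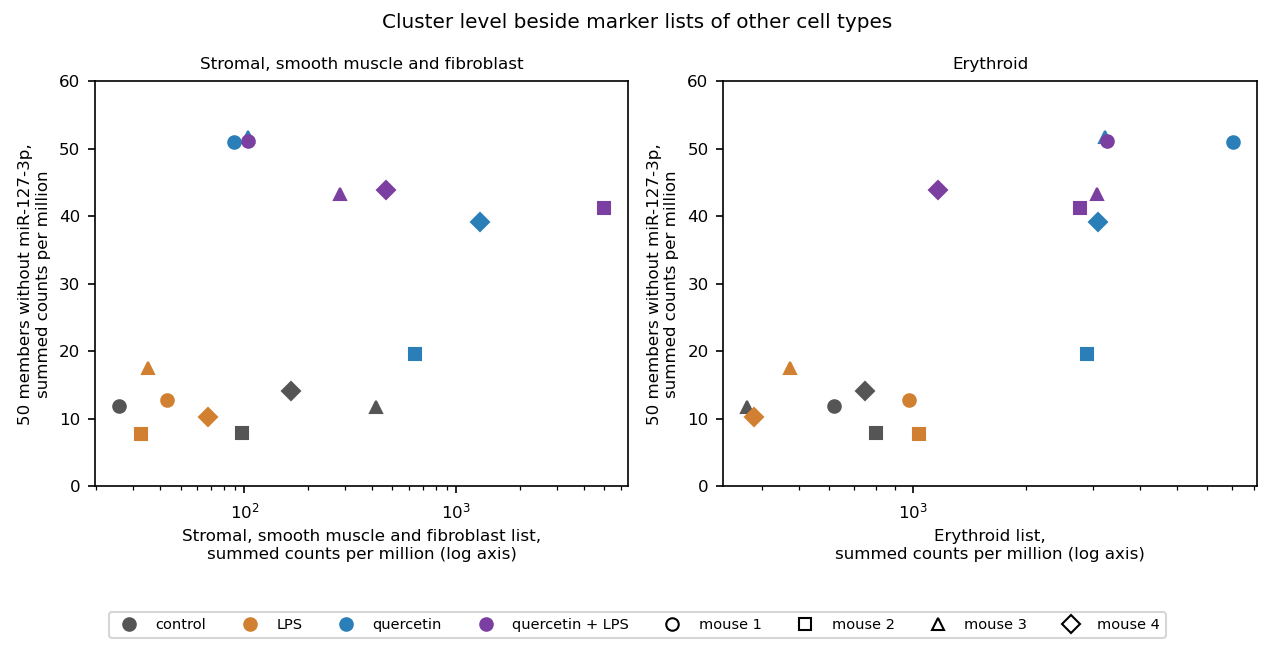
Summed level of the 50 members without miR-127-3p (linear axis) against the summed level of the stromal list (left) and the erythroid list (right), identical rows counted once, both in CPM on a log axis; each point is a library, with colour for group and shape for mouse. Libraries with quercetin lie at 19.6 and above over stromal sums from 89.4 to 4986, and they lie to the right of all others on the erythroid axis, from 1163 upwards.

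One other miRNA of the region outside the rule passed the filter. miR-369-3p, a member of the same array, held 1518 counts, more than any member but miR-127-3p, and rose by 1.52 ± 0.43 with quercetin and by 1.97 ± 0.43 with LPS present (log2, SE; edgeR adjusted p = 0.0231 and 0.00483). miR-369-5p had 7 counts.

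The promoter of Meg3, the start of the maternal noncoding transcripts, is shown as background to the region. It is from the RefSeq table on GRCm38.p6, plus strand, chr12:109540746-109541045, 250 bases before to 50 after the start. Capitals mark the single match, on either strand, to TGACGTCA, the palindromic core of the cAMP response element.
Meg3 promoter: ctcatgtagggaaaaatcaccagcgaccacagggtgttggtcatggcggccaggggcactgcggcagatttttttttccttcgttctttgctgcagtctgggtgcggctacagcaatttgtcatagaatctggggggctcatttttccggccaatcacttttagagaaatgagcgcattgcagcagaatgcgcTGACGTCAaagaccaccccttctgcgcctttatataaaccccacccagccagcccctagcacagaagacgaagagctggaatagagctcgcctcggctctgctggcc

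The match begins 57 bases before the start, and 588 of 32851 mouse promoters of the same length (1.79%) hold one. A match of letters is no evidence of binding, and no promoter activity was measured here. The part of this promoter in the result was not tested.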

How the data were processed

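Small RNA was sequenced from 16 cultures, 4 groups of 4, prepared with miRNeasy and TruSeq Small RNA kits per the labels' protocols. The authors deposited 1 table of raw counts for mature miRNAs. Cutadapt and build mm9 are named per the submitters' processing notes; versions, aligner and counting rule are not given in the sources used here, so the treatment of reads that match several miRNAs is unknown. Positions and sequences were taken by name from tables on GRCm38, and mm9 coordinates were not used.

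The table has 1381 rows with 1377 names. Counts of 4 names on 2 rows each were summed, and 1 row with text was dropped. Another 4 rows were dropped because neighbours look exchanged between libraries with and without quercetin. miR-6993-3p summed to 1 count without quercetin and 53324 with it, against 58806 and 8 for miR-1839-5p. For miR-700-3p the sums were 0 and 275, against 840 and 1 for miR-654-3p. Which libraries hold the misplaced counts is unknown. The switch follows quercetin, and whether libraries with and without it were tabulated differently was not tested. Such exchanges were sought in 1376 neighbouring pairs. A pair was flagged only with at least 100 counts on each side, so exchanges among scarcer members could not be seen. This left 1372 names. No 2 libraries of a group were near duplicates (24 pairs, smallest chi-square per degree of freedom 175).

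Differences were tested with the quasi-likelihood method of edgeR 4.0.16 (R 4.3.3), after filterByExpr on the groups and TMM scaling; all 16 libraries entered 1 model of 4 group means. P-values were Benjamini-Hochberg adjusted over the 568 miRNAs tested, with a threshold of 0.05. SE is the log2 fold change divided by the square root of F. Alternatives were other scalings, DESeq2 1.42.0, limma-voom (limma 3.58.1), no filter, the mouse as a block, only the groups compared, the exchanged rows as deposited, and each library left out. Total counts per library, from 6454535 to 13943904, set the precision, and most members have so few counts that single libraries weigh heavily.

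Equal numbers in the titles mark the same mouse, and the series' design names 4 mice, so the numbers pair the libraries. Deviations from group means correlated at 0.135 on average over 24 same-mouse pairs (-0.465 to 0.645; 11 over 0.1) and at -0.044 over 72 pairs of different mice (-0.583 to 0.671; 21 over 0.1). Deviations from a group mean cancel out over the mice of the group. The second average therefore follows largely from the first and is no independent baseline. The unblocked fit was kept as the reported one because no test is stated by the submitters, and it leaves this pairing out. The fit with the mouse as a block is the alternative. With LPS it changed the calls of miR-434-3p and miR-409-3p.

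The members and lists were chosen with earlier results of these data known. Members that passed the filter are all named; of the others, the 3 with the most counts, and miR-543-3p, which was chosen after its values were seen. Of each marker list the 2 most abundant names are given.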

Additional observations from a re-analysis of the deposited data

Results flagged for a closer look

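In 6 of 52 sets of 4 libraries, 1 library lay apart from the other 3 by more than Dixon's 95% limit; 1 in 20, or 2.6, would do so by chance. miR-127-3p stood at 121 CPM in quercetin 1, against 0.523 to 3.06 in the other quercetin libraries, and at 32.9 CPM in the mouse 1 library given quercetin and LPS, against 0.135 to 1.56. That library also had the highest cluster sum of its group, 86.7 CPM of the library total against 42.9 to 45.2. miR-434-3p stood at 8.36 CPM in the mouse 2 library given both agents, against 0.412 to 1.56. In the mouse 4 library given both agents miR-411-5p was the highest, at 10.8 CPM against 5.21 to 5.92, and miR-300-3p the lowest, at 0.673 CPM against 2.21 to 2.47.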

How the results depend on the processing

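The calls for miR-410-3p and miR-411-5p in both comparisons, miR-409-3p without LPS, and miR-127-5p and miR-381-3p with LPS held under all alternatives in which they were tested. With the mouse as a replicate block, the members called were again 4 without LPS and 5 with LPS, and among all miRNAs 92 were called without LPS (reported: 90) and, with LPS, 54 higher and 90 lower (reported: 49 and 81). Blocking lost miR-434-3p and gained miR-409-3p with LPS, reversed miR-127-3p with LPS (-0.54), and changed no other member's call. limma-voom also reversed miR-127-3p with LPS (-0.39). Leaving out 1 library at a time gave 4 to 5 and 5 to 7 members called. For all miRNAs it gave 54 to 99 calls for quercetin against control, 80 to 141 with LPS, 0 to 5 for LPS against control, 2 to 7 for LPS added to quercetin and 0 for the interaction. The log2 fold change of miR-127-3p then ran from -2.25 to 3.04 and, with LPS, from -2.95 to 1.17, and the log2 ratio of the summed members from 1.09 to 2.35 and from 1.16 to 1.80. In a fit of only the 2 groups compared, with LPS, 6 of the 11 members were tested, 3 were called, and 70 miRNAs were called in all; fewer miRNAs and libraries entered it. LPS against control gave 1 call with library size only and 6 with DESeq2 (reported: 3), and LPS added to quercetin gave 4 with DESeq2 (reported: 2). The log2 ratio of the summed members with LPS (1.47) became 1.89 without miR-127-3p and 0.97 with the miR-654 rows as deposited, which without LPS gave 1.45 in place of 2.03. Counted over all members with at least 1 count, 8 in place of 3 had all quercetin libraries above all controls (5.17% of all 1372 names). With LPS, 6 in place of 4 had all libraries with both agents above all with LPS alone (3.21%). Upper quartile scaling moved the median of all miRNAs from -0.05 to 0.15 without LPS and from -0.13 to 0.14 with LPS, and library size only from -0.13 to 0.15 with LPS. Differences in the 40 members under the filter are mostly below what these depths can show.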
